A study of Mus musculus with 4 samples.

Results

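The complement genes described here are C1qa, C1qb, C1qc, C3, C4b, Cfb, Cfp, C3ar1 and C5ar1, chosen by symbol as the components and receptors that brain phagocytes and infiltrating leukocytes are known to make. They are 9 of the 31053 genes listed for each library, and all of them had counts. The cells came from C57/BL6 mice after transient middle cerebral artery occlusion (tMCAO), in which a cerebral artery is closed for a while and then allowed to reperfuse. Saline-perfused ischemic hemispheres were taken 5 or 14 days later, and leukocytes with high surface CD45 were sorted and profiled with Single Cell 3' v2 droplets. Each day had 2 libraries, and no sham or uninjured hemisphere is among the samples. Nothing in the labels says whether the libraries of a day came from separate mice, so the p-values measure the spread between libraries, which may be technical.

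Complement is a cascade of plasma and tissue proteins that tags particles for uptake and attracts phagocytes. C1q, built from the C1qa, C1qb and C1qc chains, starts the classical pathway, which runs through C4 to the central protein C3. Factor B, the product of Cfb, forms the alternative pathway's C3-cleaving enzyme together with C3b, and properdin, the product of Cfp, stabilizes it. The cleavage fragments C3a and C5a act on the receptors encoded by C3ar1 and C5ar1. In the brain, microglia are known as a main source of C1q, and C1q and C3 are known for tagging synapses for removal.

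To show the regulatory sequence beside the levels, the 250 bases before the start are printed for 4 members: a pair of C1q chains, highest in microglia by mean level, and C3 and C5ar1, highest in neutrophils by mean level. No relation between motif and level was tested. Capitals mark AGGAAG or its complement CTTCCT, the core bound by ETS factors such as PU.1, in C1qb, C1qc and C5ar1, and TTGCNNAA, a C/EBP-type sequence, in C3. All are given 5′ to 3′ on the gene's own strand, which is the minus strand for each, from the RefSeq promoter table for GRCm38.p6.
C1qb: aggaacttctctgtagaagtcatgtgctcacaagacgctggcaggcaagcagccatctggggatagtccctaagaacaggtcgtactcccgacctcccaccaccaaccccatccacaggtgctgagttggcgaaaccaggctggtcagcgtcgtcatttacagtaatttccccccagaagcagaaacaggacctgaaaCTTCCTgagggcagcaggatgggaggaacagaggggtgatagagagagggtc
C1qc: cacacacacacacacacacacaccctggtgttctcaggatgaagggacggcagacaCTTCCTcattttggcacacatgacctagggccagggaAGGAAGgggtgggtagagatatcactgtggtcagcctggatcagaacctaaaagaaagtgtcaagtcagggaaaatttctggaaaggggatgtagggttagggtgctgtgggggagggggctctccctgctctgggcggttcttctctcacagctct
C3: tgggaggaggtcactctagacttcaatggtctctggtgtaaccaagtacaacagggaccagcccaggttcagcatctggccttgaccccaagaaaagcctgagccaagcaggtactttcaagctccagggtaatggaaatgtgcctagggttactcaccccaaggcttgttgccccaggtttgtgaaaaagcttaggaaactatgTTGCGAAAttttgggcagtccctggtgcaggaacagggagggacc
C5ar1: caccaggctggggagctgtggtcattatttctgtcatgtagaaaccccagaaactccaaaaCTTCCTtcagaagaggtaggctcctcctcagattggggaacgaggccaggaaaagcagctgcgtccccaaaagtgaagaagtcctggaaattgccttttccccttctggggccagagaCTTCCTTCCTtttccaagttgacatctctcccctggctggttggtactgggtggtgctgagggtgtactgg

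These windows lie at chr4:136886201-136886450 for C1qb, chr4:136892915-136893164 for C1qc, chr17:57228137-57228386 for C3 and chr7:16259339-16259588 for C5ar1. The table matched 6 of the 9 members by symbol, C1qb, C1qc, C3, Cfp, C3ar1 and C5ar1. Motifs were searched on both strands of the full 300 bases, which run on 50 bases past the start. AGGAAG occurred in 4 of the 6, C1qb, C1qc, C3ar1 and C5ar1, against 35.4% of all 32851 promoters in the table. C5ar1 held 3 matches, starting 189, 71 and 67 bases before the start and the last 2 overlapping, and C1qb and C1qc held 2 each. TTGCNNAA occurred in C3, 45 bases before the start, against 10.8% of all promoters. A pair of GAAA spaced by 2 bases, an element of interferon regulatory factors, occurred in 0 of the 6 and in 3.44% of all promoters. The motifs were chosen after the sequences were seen, and a match describes letters, not binding. In GRCm38 the 3 C1q genes lie side by side on the minus strand at chr4:136880129-136898803, a span of 18675 bases. C4b lies at chr17:34728380-34743882 near its near-identical copy C4a, with which its reads may be shared, so C4b values are uncertain. C4a is not among the genes listed for the libraries and is not analysed here.

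Of 10925 barcodes, 10841 were used, at a median of 2882 to 4230 unique molecular identifiers (UMIs) per barcode and 9288054 to 13610119 UMIs per library. Only 130 barcodes occurred in more than 1 library, and no pair of libraries shared more than 16. No barcode of the day 5 libraries had fewer than 500 and 505 UMIs, no barcode of the day 14 libraries fewer than 1180 and 1317, and the matrix headers differ in the same way, so cell calling cannot be told apart from day. Cells were assigned to 11 classes by marker genes that include no member, and 664 cells with markers of 2 lineages were set apart. Microglia numbered 640 and 1249 cells on day 5 and 135 and 60 on day 14, monocytes or monocyte-derived macrophages 471 and 475 against 361 and 664, and T cells 57 and 59 against 589 and 323. These numbers depend on the sort for high CD45, a protein that resting microglia carry less of than blood-derived leukocytes. Border-associated macrophages, the phagocytes of the meninges and vessel surroundings, had 41 and 104 cells on day 5 but only 9 and 11 on day 14, so they have no test between days. Levels are given as counts scaled to a common total (CPM), a gene's share of the UMIs of a class in 1 library, times 1000000, always in the order day 5 libraries 1 and 2, then day 14 libraries 1 and 2. Day differences are log2 fold changes, day 14 over day 5, with standard errors (SE), from edgeR's quasi-likelihood test on summed counts with Benjamini-Hochberg adjustment over all genes tested in the class, and n is 2 libraries per day.

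C1q UMIs outnumbered those of all other members together, at 158468 for C1qa alone over all cells used against 8256 for Cfp, the next most counted gene outside C1q. Microglia and disease-associated phagocytes had the highest levels. C1qa stood at 9914, 10091, 10582 and 11241 CPM in microglia. It stood at 9383, 9509, 11051 and 8314 CPM in disease-associated phagocytes, the cells gated on Spp1, Gpnmb, Cst7 and similar genes. The 2 classes overlapped, and the day 14 library with the highest microglial level had the lowest in the disease-associated cells. Border-associated macrophages were lower in every library, at 5853, 6639, 5868 and 6998 CPM. In the day 5 libraries alone, a comparison added after the data were seen, microglia exceeded them by 0.74 ± 0.15 (log2, SE) for C1qa (edgeR adjusted p = 0.000496), 0.74 ± 0.16 for C1qb and 0.70 ± 0.11 for C1qc. In that comparison 6 of 9 members passed, against 10.7% of all genes. Microglial C1q did not pass between days, with changes of 0.21 ± 0.08 for C1qa (edgeR adjusted p = 0.173), 0.10 ± 0.08 for C1qb and 0.07 ± 0.08 for C1qc. After each cell was thinned to 1000 UMIs, 99.4% to 99.9% of microglia still held a C1qa UMI.

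Monocytes or macrophages carried less C1q, and less on day 14 than on day 5. Their C1qa level was 2529, 2455, 955 and 1108 CPM, both day 5 libraries lying above both day 14 libraries. C1qa fell by 1.19 ± 0.13 (edgeR adjusted p = 0.000165), C1qb by 1.07 ± 0.14 (adjusted p = 0.000551) and C1qc by 1.22 ± 0.14 (adjusted p = 0.000278). In this class 6 of 9 members passed between days, 2 upward and 4 downward, against 11.1% of all genes. The make-up of the class changed too: cells that passed the monocyte gate made up 70.5% and 66.5% of it on day 5 and 95% and 97.3% on day 14, the rest having been admitted by Ms4a7, a macrophage gene. Within the monocyte gate alone, C1qa stood at 1841, 1767, 715 and 1052 CPM and fell by 0.91 ± 0.18 (edgeR adjusted p = 0.00962), and 5 of 9 members passed against 7.85% of all genes.

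Clusters made without complement genes split the class further. A cluster led by Ms4a7, Apoe and Gpnmb held 29.7% and 30.1% of the class on day 5 and 2.5% and 1.4% on day 14, and it was the richest in C1qa, at 3619 and 3605 CPM on day 5 and 5638 and 5765 CPM in the 9 cells of each day 14 library. A cluster led by Ms4a4c, Plac8 and Ly6c2, genes of freshly arrived monocytes, went from 8.3% and 9.3% to 55.4% and 50.9%, and its C1qa level was 168, 608, 464 and 492 CPM. The days overlapped in that cluster. A cluster led by Arg1, Gpnmb and Spp1 stood at 3192 and 3141 CPM on day 5 and 1819 and 1945 CPM on day 14. The clusters were compared after the data were seen and carry no test.

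**Figure D1:**
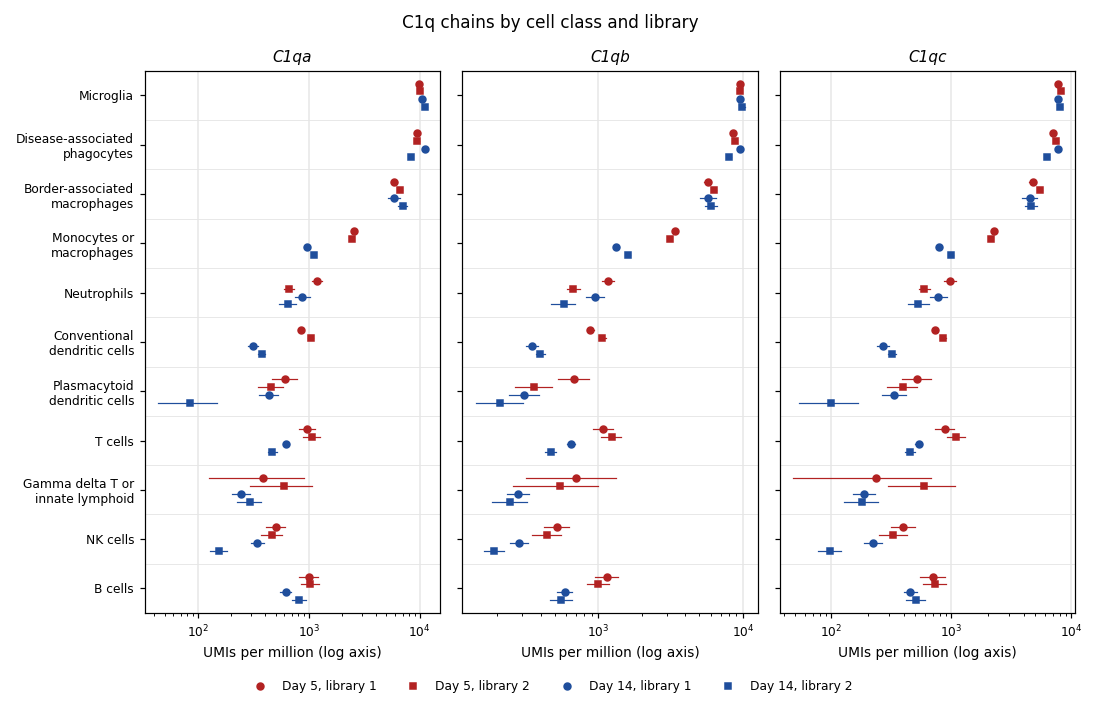
Levels of C1qa, C1qb and C1qc (CPM, log axis) in each class, with red for day 5, blue for day 14, circles for library 1, squares for library 2 and bars for exact Poisson 95% intervals, which cover counting error only. Microglia and disease-associated phagocytes sit between 6293 and 11241 CPM for the 3 chains, and T, NK and B cells sit between 154 and 1058 CPM for C1qa.

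Lymphocytes are not known to transcribe C1q, so their level serves as the background of free RNA and mixed droplets. T, natural killer (NK) and B cells and the gamma delta T or innate lymphoid cells, pooled, held 756, 799, 515 and 374 CPM of C1qa. Summed over the 3 chains, their C1q was 2211, 2307, 1444 and 1038 CPM, or 17.5%, 14.6%, 27.0% and 24.6% of the level over all cells of the same library. The lymphocyte level was thus lower on day 14, at a mean of 1241 ± 287 CPM (SD) against 2259 ± 67.7 CPM, a ratio of 1.82 (exact permutation p = 0.333, the smallest that 2 against 2 libraries allow). Over all cells the ratio was 2.97. Lymphocytes were also deeper on day 14, with median UMIs of NK cells at 1453 and 1150, then 2096 and 2946. T and B cells went the same way. C1qa UMIs numbered 346 and 352 in 240 and 282 lymphocytes, then 1695 and 882 in 1304 and 752. Per cell, the days thus overlapped. NK cells and the gamma delta T or innate lymphoid cells were lower in C1q than T and B cells in every library. NK cells made up 117 and 126 of these lymphocytes, then 265 and 245. The gamma delta T or innate lymphoid cells made up 8 and 11, then 231 and 93. The part of depth and make-up in the lower CPM was not tested. After thinning to 1000 UMIs, 32.4%, 36.2%, 21.6% and 17.9% of lymphocytes held a C1qa UMI, against 42.1%, 41.5%, 34.7% and 34.7% before thinning.

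Microglia stood 12.6-fold to 30.1-fold above lymphocytes of the same library for C1qa in CPM, and monocytes or macrophages 1.85-fold to 3.35-fold. Not every cluster of monocytes or macrophages lay clearly above the 756, 799, 515 and 374 CPM of lymphocytes. A cluster led by Elane, Chil3 and Mpo, with 43.1% and 36.4% of the class on day 5, stood at 899, 805, 511 and 461 CPM. The Ms4a4c, Plac8 and Ly6c2 cluster stood at 168, 608, 464 and 492 CPM. Conventional dendritic cells, at 842, 1041, 312 and 376 CPM, lay at 0.606-fold to 1.30-fold the lymphocyte level, and plasmacytoid dendritic cells lay below lymphocytes in all 4 libraries. Neutrophils lay at 0.828-fold to 1.73-fold. As whole classes, dendritic cells and neutrophils were therefore not separable in C1q CPM from the lymphocyte background. A neutrophil cluster led by G0s2, Cxcl2 and Hdc, however, stood at 1307, 1468, 885 and 490 CPM of C1qa, above pooled lymphocytes in every library. B cells alone lay above that cluster in day 14 library 2. A neutrophil cluster led by Camp, Ngp and Ltf stood at 830 and 392 CPM on day 5. Depth differs between classes, and CPM divides by it. Dendritic cells held 1313, 1318, 370 and 809 C1qa UMIs in 278, 255, 211 and 341 cells. Neutrophils held 376, 397, 176 and 122 in 170, 211, 75 and 62 cells. Lymphocytes held 346, 352, 1695 and 882 in 240, 282, 1304 and 752 cells. Dendritic cells and neutrophils thus had more per cell in all 4 libraries, and the reason was not tested.

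Classes near that background in CPM nevertheless gave calls between days. C1qa fell by 1.41 ± 0.13 in dendritic cells (edgeR adjusted p = 5.21e-05) and by 0.80 ± 0.16 in T cells (adjusted p = 0.0117), and C1qb fell by 0.90 ± 0.21 in NK cells (adjusted p = 0.0139). The make-up of the dendritic class changed too. A cluster led by H2-Oa and Epcam held 65.8% and 56.9% of it on day 5 and 8.1% and 6.5% on day 14. Its C1qa level was 871, 1022, 472 and 646 CPM, against 228, 600, 238 and 129 CPM in a cluster led by Naaa, Ifi205 and Xcr1. The part of this change in the fall was not tested. Members passed in 4 of 6 tests in dendritic cells (14.2% of all genes), 4 of 5 in T cells (2.93%) and 2 of 3 in NK cells (5.61%). In B cells 0 of 3 passed (4.54%), with 2 at an unadjusted p under 0.05 by edgeR and 0 passing by DESeq2, and in plasmacytoid dendritic cells 0 of 4 (1.62%), with 2 and 0. The summed level of the 10 microglial markers moved the same way in these classes, at 1518, 1739, 693 and 587 CPM in T cells and 1639, 1879, 666 and 547 CPM in dendritic cells, none of the markers being at 0. In monocytes or macrophages that sum was 3086, 3197, 1181 and 1115 CPM, and its part in the C1q differences was not tested. The T cell calls for C1qa and C1qc did not pass without day 5 replicate 2 (adjusted p = 0.0903 and 0.0569), and the NK cell call for C1qb did not pass without day 5 replicate 1 or day 14 replicate 2 (adjusted p = 0.149 and 0.0760).

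The ratio of the chains differed between classes. C1qb per C1qa was 0.966, 0.951, 0.903 and 0.881 in microglia, 0.864 to 0.984 in border-associated macrophages and 1.34, 1.27, 1.39 and 1.45 in monocytes or macrophages. Every library gave the monocyte class the higher ratio, by 0.440 ± 0.111 over microglia (SD, n = 4 libraries, exact permutation p = 0.125, the smallest that 4 pairs allow). It also exceeded the lymphocyte ratio, by 0.335 ± 0.130. Border-associated macrophages differed from microglia by 0.0184 ± 0.0431 and disease-associated phagocytes by -0.00970 ± 0.0591, both within the spread of the libraries. The lymphocyte ratio lay above that of microglia too, by 0.106 ± 0.0311 in 4 of 4 libraries (exact permutation p = 0.125).

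**Figure D2:**
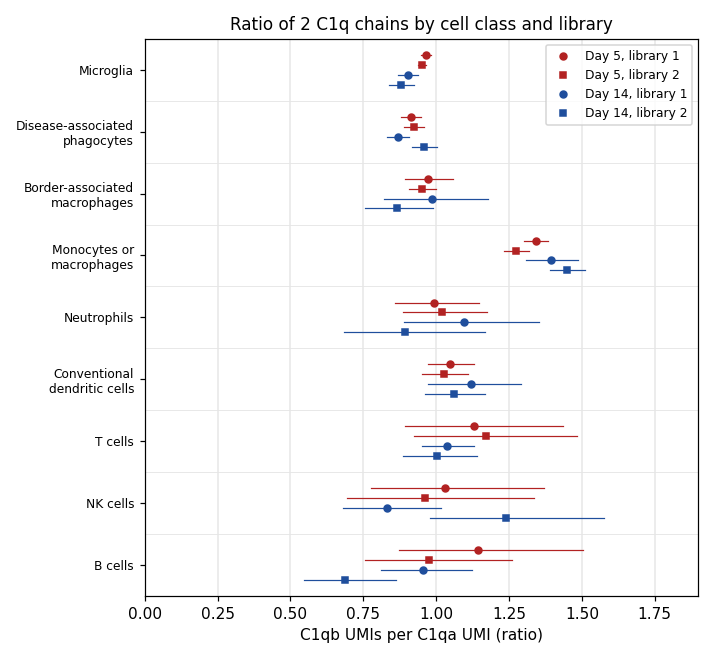
C1qb UMIs per C1qa UMI (linear axis) by class and library, with red for day 5, blue for day 14, circles for library 1, squares for library 2 and bars for 95% intervals from counting error only. The plasmacytoid and the gamma delta T or innate lymphoid class are not drawn. Monocytes or macrophages lie at 1.27 to 1.45 in all 4 libraries, above microglia at 0.881 to 0.966.

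C4b, a copy of the classical pathway's C4, had its highest level in border-associated macrophages, although these few cells supplied a mean of 22.9% of its UMIs on day 5 and 19.2% on day 14. Its level there was 218, 134, 448 and 211 CPM, from 41, 69, 19 and 14 UMIs, against 24.6, 15.8, 32.7 and 34.6 CPM in microglia. No library of the border-associated cells fell as low as any library of microglia, and in the day 5 libraries alone microglia were lower by 3.02 ± 0.24 (log2, edgeR adjusted p = 1.42e-11). Microglia in turn exceeded monocytes or macrophages, which stood at 14.9, 13.2, 2.9 and 8.0 CPM, by 1.26 ± 0.38 (edgeR adjusted p = 0.0085), a call that did not pass without day 14 replicate 1 (0.87, adjusted p = 0.106). Border-associated macrophages also carried C2, the partner of C4 in the classical C3 convertase, at 37.2, 36.9, 70.7 and 121 CPM, against 0 to 8.61 CPM in microglia.

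C3 itself was rare, with 1350 UMIs over all cells used, and came from infiltrating cells. Neutrophils held 113, 155, 84.4 and 122 CPM and monocytes or macrophages 68.9, 76.8, 109 and 99.2 CPM, while microglia held 8.1, 4.9, 18.9 and 22.0 CPM from 20, 22, 11 and 7 UMIs. Microglia were lower than monocytes or macrophages by 3.10 ± 0.31 (log2, edgeR adjusted p = 1e-10), with no overlap between the classes. In that contrast 7 of 9 members passed, 4 higher and 3 lower in microglia, against 33.4% of all genes. Monocytes or macrophages were also lower than neutrophils by 0.73 ± 0.25 (adjusted p = 0.032), though higher in day 14 replicate 1, and the call did not pass without day 5 replicate 1 (adjusted p = 0.092) or without day 5 replicate 2 (adjusted p = 0.372). That contrast gave 7 of 9 members against 23.1% of all genes. Lymphocytes held 0, 2.3, 0.9 and 2.5 CPM of C3, so its background was far lower than that of C1q. Within neutrophils, a cluster led by Camp, Ngp and Ltf, granule genes of immature neutrophils, held 210 and 201 CPM on day 5 and had at most 1 cell per library on day 14. The other neutrophil cluster stood at 63.2, 30.1, 83.3 and 130 CPM.

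In monocytes or macrophages C3 rose by 0.59 ± 0.14 (edgeR adjusted p = 0.0185), with both day 14 libraries above both day 5 libraries. That rise did not pass with DESeq2 (adjusted p = 0.146), with the replicate number as a block (adjusted p = 0.0598) or without day 5 replicate 1 (adjusted p = 0.118). Within the monocyte gate alone the level was 92.9, 112, 110 and 100 CPM and the change 0.15 ± 0.15 (adjusted p = 0.643). In microglia C3 rose by 1.79 ± 0.48 (edgeR adjusted p = 0.0445) from these few UMIs, a call that did not pass with DESeq2 (adjusted p = 0.267) or without any 1 of the 4 libraries (adjusted p = 0.0979 to 0.821).

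Cfb, which encodes the alternative pathway's protease factor B, was the member that rose in the most classes. In monocytes or macrophages it stood at 38.7, 35.2, 133 and 214 CPM, every day 14 library lying above every day 5 library, a rise of 2.33 ± 0.22 (log2, edgeR adjusted p = 5.95e-05). In microglia it stood at 6.0, 8.0, 27.5 and 40.9 CPM, from 15, 36, 16 and 13 UMIs, a rise of 2.23 ± 0.38 (adjusted p = 0.00184). In disease-associated phagocytes it stood at 3.2, 19.7, 56.0 and 117 CPM, a rise of 2.99 ± 0.54 (adjusted p = 0.0132) that did not pass without day 14 replicate 2 (2.38, adjusted p = 0.161). The day effect did not differ detectably between microglia and monocytes or macrophages, at -0.00 ± 0.19 (edgeR class by day interaction, adjusted p = 1). Microglia had 4 of 9 members passing between days, 2 in each direction (3.96% of all genes), and disease-associated phagocytes 1 of 8 (4.10%). In border-associated macrophages the values were 15.9, 17.5, 94.3 and 241 CPM, and lymphocytes stood at 4.4, 0, 1.2 and 6.4 CPM. The neutrophil cluster led by G0s2, Cxcl2 and Hdc stood at 10.5, 7.5, 26.0 and 130 CPM, from 2, 1, 5 and 21 UMIs. Cfb had too few counts for a test between days in neutrophils.

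The monocyte clusters differed in Cfb. The cluster led by Arg1, Gpnmb and Spp1, whose leading genes also include Cfb, held 4.7%, 2.7%, 13% and 27.1% of the class and stood at 197, 152, 373 and 369 CPM. The cluster led by Ms4a4c, Plac8 and Ly6c2 stood at 102, 183, 128 and 185 CPM, the days overlapping. The cluster led by Elane, Chil3 and Mpo, genes of young myeloid cells, fell from 43.1% and 36.4% of the class to 8.0% and 3.9% and stood at 26.8, 19.1, 0 and 39.2 CPM. Among microglia, the cluster led by P2ry12 and Tmem119 stood at 5.9, 6.6, 28.0 and 72.0 CPM. The 9 monocyte markers summed to 500, 476, 389 and 686 CPM in microglia, below both day 5 libraries in 1 day 14 library and above them in the other, and to 869, 811, 733 and 1254 CPM in disease-associated phagocytes, and their part in the rise was not tested.

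The cells with C3 and those with Cfb were partly the same. Of monocytes or macrophages with a Cfb UMI, 32.8%, 38.1%, 33.7% and 41.8% also had a C3 UMI, against 24.6%, 21.7%, 31.9% and 24.4% of the rest. The share was higher beside Cfb in all 4 libraries of the class. Within the monocyte gate alone it was 35.3%, 43.8%, 32.3% and 42.0% against 31.7%, 30.3%, 33.2% and 24.4%, and so not higher in day 14 replicate 1. Cells with more UMIs are likelier to show either gene, and depth was not equalized here.

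**Figure D3:**
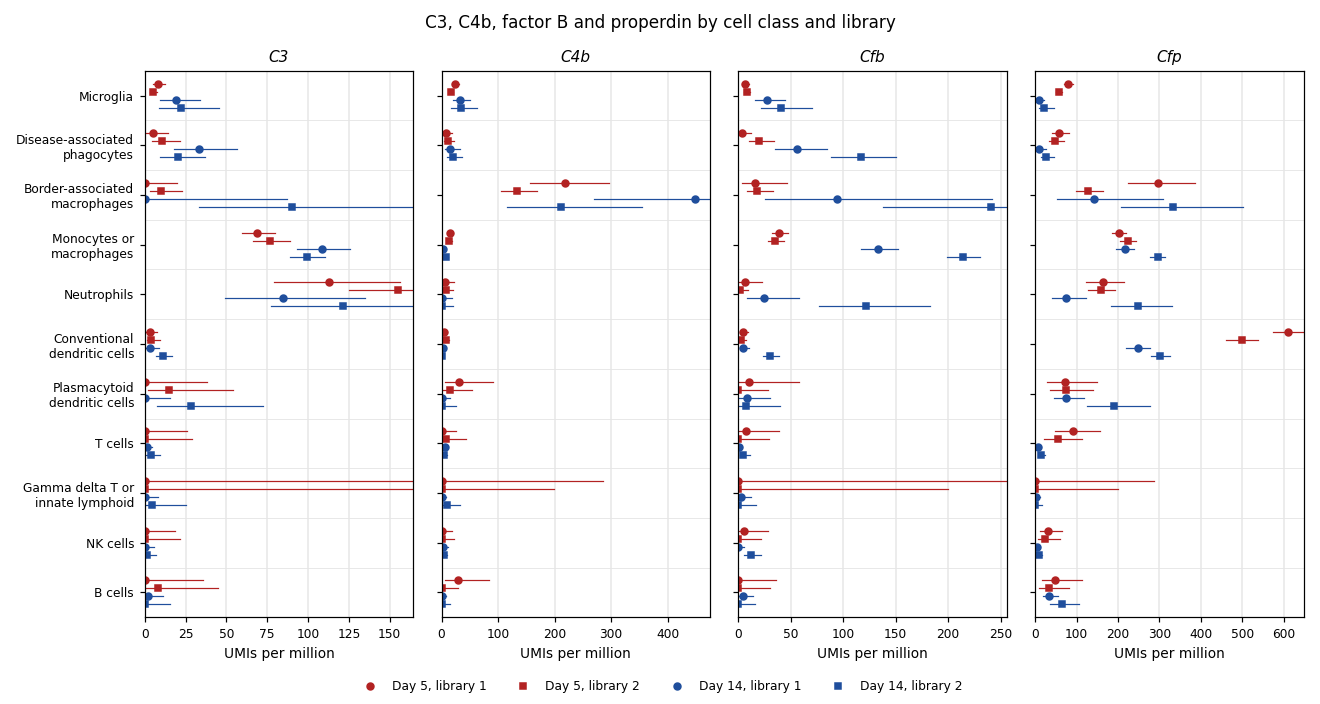
Levels of C3, C4b, Cfb and Cfp (CPM, linear axis) by class, with red for day 5, blue for day 14, circles for library 1, squares for library 2 and bars for exact Poisson 95% intervals, some of which run past the right edge. Cfb in monocytes or macrophages separates the days, at 35.2 and 38.7 against 133 and 214 CPM, and C4b peaks in border-associated macrophages.

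Cfp, the gene of properdin, was highest by mean level in conventional dendritic cells, at 611, 498, 247 and 302 CPM. In day 14 replicate 2 the 11 border-associated macrophages lay higher, at 1507% of the microglial level against 1370% in dendritic cells. Dendritic cells lay above monocytes or macrophages, at 202, 224, 216 and 296 CPM, in all 4 libraries. The difference was 0.71 ± 0.26 on the log2 scale (edgeR adjusted p = 0.0374) and did not pass without day 5 replicate 1 (adjusted p = 0.219) or without day 5 replicate 2 (adjusted p = 0.198). The other 8 members were all higher in monocytes or macrophages than in dendritic cells, so that 9 of 9 passed, against 30.3% of all genes. In dendritic cells Cfp fell by 0.98 ± 0.14 between days (edgeR adjusted p = 0.000755). Within the class, Cfp was high in a cluster led by H2-Oa and Epcam, at 790, 696, 449 and 603 CPM, and in a cluster led by Cd209a, at 712, 736, 588 and 719 CPM. It was low in a cluster led by Ccr7, Ccl22 and Fscn1, genes of migratory dendritic cells, at 20.6, 0, 68.8 and 138 CPM. The first of these went from 65.8% and 56.9% of the class to 8.1% and 6.5%, and the last from 8.6% and 11% to 32.7% and 33.4%.

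Microglial Cfp was low and close to the lymphocyte level. It stood at 79.8, 56.2, 8.6 and 22.0 CPM, and lymphocytes at 52.4, 34.1, 10.0 and 15.7 CPM. The class gave a fall of 2.22 ± 0.42 (edgeR adjusted p = 0.00383) that did not pass without day 14 replicate 1 (adjusted p = 0.173). In the 2 clusters that hold most of the class, led by P2ry12 and by Ttr and Cd5l, the level was 7.8 to 16.9 CPM in every library of both days, and with clusters in place of gates the change was 0.89 (adjusted p = 0.405). No fall was seen inside those clusters.

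C3ar1, the receptor for C3a, was found at similar levels in the 4 macrophage and monocyte classes. It stood at 249, 248, 236 and 242 CPM in microglia, 279, 288, 219 and 217 CPM in disease-associated phagocytes, 287, 254, 236 and 392 CPM in border-associated macrophages and 285, 216, 140 and 200 CPM in monocytes or macrophages. These 4 classes overlapped, and the microglia to monocyte difference of 0.32 ± 0.19 did not pass (edgeR adjusted p = 0.224). The monocyte clusters differed, however. The Ms4a7, Apoe and Gpnmb cluster stood at 417, 358, 298 and 394 CPM and the Arg1, Gpnmb and Spp1 cluster at 437, 400, 335 and 397 CPM. The Ms4a4c, Plac8 and Ly6c2 cluster stood at 84.0, 165, 141 and 133 CPM and the Elane, Chil3 and Mpo cluster at 211, 107, 32.4 and 88.2 CPM. Neutrophils were lower, at 50.3, 45.0, 64.5 and 63.5 CPM, by 1.85 ± 0.27 against monocytes or macrophages (adjusted p = 1.25e-06), and lymphocytes stood at 4.7 to 20.4 CPM. C3ar1 did not pass between days in any class tested. Its microglial change was 0.02 ± 0.14 (adjusted p = 0.963), and after thinning 20.3%, 21.6%, 19.8% and 20.4% of microglia held a C3ar1 UMI.

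C5ar1, the receptor for C5a, had another order. Neutrophils were highest, at 656, 430, 576 and 498 CPM. Monocytes or macrophages stood at 427, 258, 122 and 160 CPM, below neutrophils in every library, by 1.41 ± 0.22 (log2, edgeR adjusted p = 3.44e-06). Border-associated macrophages at 393, 313, 165 and 256 CPM, disease-associated phagocytes at 289, 294, 71.3 and 203 CPM and microglia at 220, 218, 124 and 107 CPM overlapped with the monocyte class. Lymphocytes stood at 7.6 to 29.5 CPM and dendritic cells at 5.9 to 36.3 CPM.

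C5ar1 fell with time in both main phagocyte classes. The fall was 1.19 ± 0.22 in monocytes or macrophages (edgeR adjusted p = 0.0058, but 0.0634 with DESeq2), 1.30 ± 0.23 within the monocyte gate alone (adjusted p = 0.00588) and 0.81 ± 0.16 in microglia (adjusted p = 0.00492, but 0.200 with clusters in place of gates). Both day 14 libraries lay below both day 5 libraries in each. The levels were lower on day 14 inside clusters as well, at 620, 333, 170 and 186 CPM in the Elane, Chil3 and Mpo cluster, 456, 443, 118 and 162 CPM in the Ms4a4c, Plac8 and Ly6c2 cluster and 228, 239, 162 and 132 CPM in the P2ry12 and Tmem119 cluster of microglia. In neutrophils as a class C5ar1 changed by -0.10 ± 0.21 (edgeR adjusted p = 0.791). Their cluster led by G0s2, Cxcl2 and Hdc stood at 748, 881, 552 and 571 CPM, lower in both day 14 libraries. It held 80%, 49.8%, 96% and 93.5% of the class. The Camp, Ngp and Ltf cluster stood at 544 and 333 CPM on day 5, with 15.3% and 45.5% of the class. The part of this make-up in the class value was not tested. In neutrophils 0 of 7 members passed, against 16.4% of all genes, with 0 at an unadjusted p under 0.05 and 0 passing by DESeq2. Cfb and C4b had too few counts to be tested there.

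**Figure D4:**
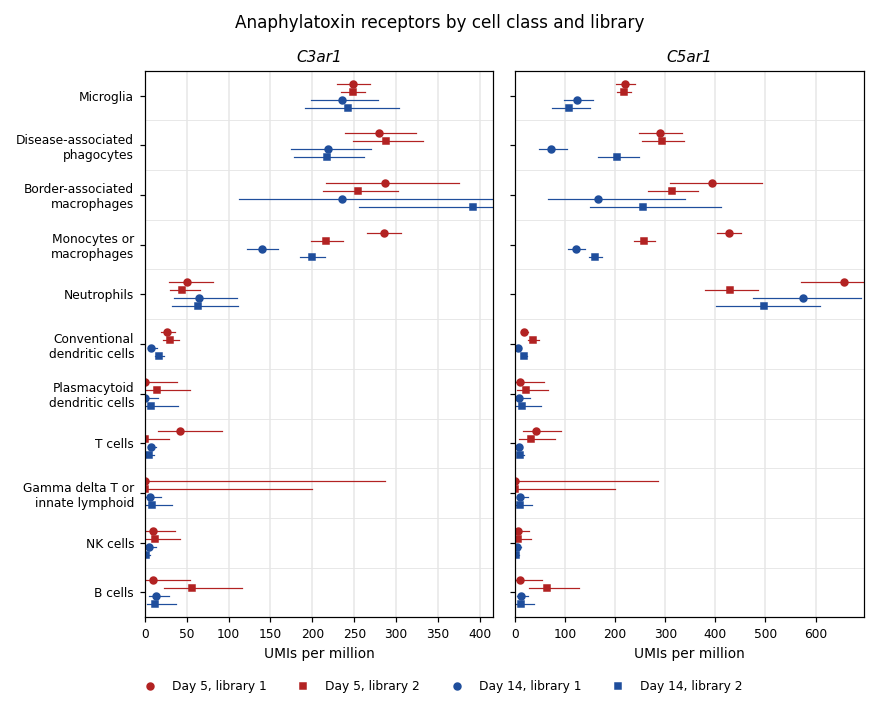
Levels of C3ar1 and C5ar1 (CPM, linear axis) by class, with red for day 5, blue for day 14, circles for library 1, squares for library 2 and bars for exact Poisson 95% intervals, some of which run past the right edge. C5ar1 is highest in neutrophils, at 430 to 656 CPM, where C3ar1 is at 45.0 to 64.5 CPM.

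The day effect of 5 members differed between microglia and monocytes or macrophages by the class by day interaction, against 2.25% of all genes. The difference, microglia minus monocytes or macrophages, was 1.39 ± 0.17 for C1qa (edgeR adjusted p = 6.67e-06), 1.16 ± 0.17 for C1qb, 1.29 ± 0.17 for C1qc, 2.09 ± 0.50 for C4b (adjusted p = 0.018) and -2.51 ± 0.38 for Cfp (adjusted p = 0.000177). The C1q differences passed in every alternative tried. That of C4b did not pass without day 5 replicate 2 (adjusted p = 0.0662) or without day 14 replicate 1 (adjusted p = 0.267), and that of Cfp was 0.18 (adjusted p = 0.909) with clusters in place of gates. Disease-associated phagocytes differed from microglia in 1 of 9 members, Cfb, against 8.93% of all genes, by 1.13 ± 0.35 (adjusted p = 0.036). With stricter gates that difference was 0.16 (adjusted p = 0.924). Leaving out either day 14 library or day 5 replicate 2 also ended the call (adjusted p = 0.0616 to 0.137), and 64.3% of the disease-associated cells lay near the limit of the gate.

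**Figure D5:**
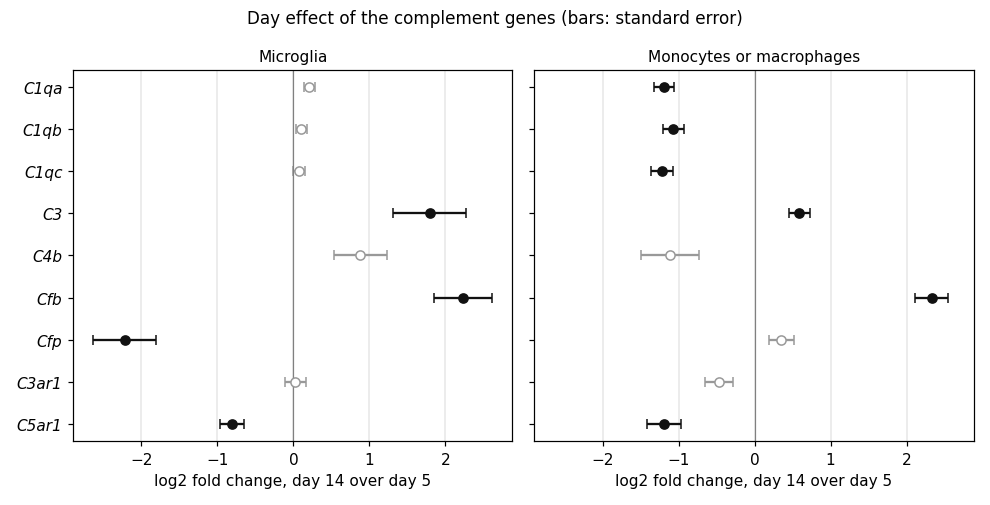
Log2 fold change of each member, day 14 over day 5, in microglia and in monocytes or macrophages, with bars for the SE. Filled black points have an edgeR adjusted p under 0.05 and open grey points do not; Cfb lies at 2.23 in microglia and 2.33 in monocytes or macrophages, while C1qa lies at 0.21 and -1.19.

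The share of each member's UMIs that came from a class is given next, over all cells used. Fewer cells of a class and less RNA per cell cannot be told apart in such shares, and they depend on the sort. Each share is given for replicates 1 and 2 of day 5, then for those of day 14. Microglia supplied 51.5% and 59.2% of C1qa UMIs, then 33.6% and 22.4%, while disease-associated phagocytes supplied 12.2% and 8.22%, then 23.7% and 26.0%. The days did not overlap in either class, but they did in monocytes or macrophages, at 14.2% and 7.57%, then 8.88% and 23.6%. C3 came mainly from monocytes or macrophages, at 69.5% and 50.3%, then 69.0% and 73.7%, with the days overlapping. Their share of Cfb UMIs was 69.3% and 45.9%, then 74.2% and 73.2%, higher in both day 14 libraries. The microglial share of C3ar1 UMIs was 32.0% and 45.2%, then 22.3% and 7.47%, and the monocyte share 39.6% and 20.7%, then 38.7% and 65.6%. With 2 libraries per day these shares were not tested.

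A list of 44 further complement genes, from initiators to regulators and receptors, gave 43 found in the files, of which 12 had no UMI and 10 had 1 to 20. In monocytes or macrophages 2 of 10 tested passed between days, both lower (11.1% of all genes), and in microglia 1 of 10, also lower (3.96%). Their median log2 change was -0.40 and -0.12, against -1.07 and 0.10 for the members and -0.01 for all genes in both classes. Fcna, a ficolin of the lectin pathway, had its highest level on day 5 in border-associated macrophages, at 149, 73.8, 23.6 and 0 CPM. In monocytes or macrophages it fell by 4.32 ± 0.87 (edgeR adjusted p = 0.00862), from 4.84 and 5.52 to 0.587 and 0 CPM. That fall rests on few counts, since Fcna had 212 UMIs over all cells used. Border-associated macrophages went from 41 and 104 cells to 9 and 11 in the same libraries, and carry-over of their RNA was not tested.

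Dendritic cells had 4 of 9 passing (14.2% of all genes), all lower, among them the integrin chains Itgam, Itgax and Itgb2, which pair into complement receptors 3 and 4. NK cells had 2 of 7 (5.61%), Itgam and Itgb2, both lower; Itgb2 stood at 559, 428, 177 and 198 CPM there (-1.26, edgeR adjusted p = 0.000548). In T cells 1 of 6 passed (2.93%), Itgax, lower. In neutrophils 1 of 8 passed, near the 16.4% of all genes, Fcnb, another ficolin, at 47.1, 318, 4.96 and 5.29 CPM (-5.33 ± 1.20, edgeR adjusted p = 0.0116), and its highest library was the one in which the Camp, Ngp and Ltf cluster held 45.5% of neutrophils. Between microglia and monocytes or macrophages 6 of 11 of the listed genes passed (33.4% of all genes), 5 of them higher in microglia, and between monocytes or macrophages and neutrophils 5 of 11 (23.1%). The class by day interaction called 0 of 13 by edgeR (2.25%), with 2 at an unadjusted p under 0.05, and DESeq2 was not run for it. Cd93, a receptor of phagocytes once described as a C1q receptor, was 2.55 lower (log2) in microglia than in monocytes or macrophages. C5ar2, the second receptor for C5a, stood at 37.7, 21.7, 34.7 and 58.2 CPM in neutrophils, against 5.87 to 15.6 CPM in monocytes or macrophages, a difference of 1.89 (adjusted p = 0.00018).

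Across 44 sums of 11 classes in 4 libraries, the genes with the most similar pattern were sought by Pearson correlation of log2(CPM + 10), as a description over sums that share libraries and depth. C1qa was closest to Csf1r (0.951), Fcrls (0.950) and Apoe (0.944), all genes of macrophages or microglia. C3 was closest to Clec4e (0.903), Hp (0.893) and Clec4d (0.862), and C4b to Mrc1 (0.899), Ccl8 (0.842) and Pf4 (0.823). Fcrls, Mrc1 and Pf4 are among the markers that gated the classes, so their pattern over the sums was partly set by the gates. Cfb had the weakest likeness, to Ifi204 (0.784), Fcgr1 (0.783) and Oasl2 (0.771), of which Ifi204 and Oasl2 are interferon-induced genes. Cfp was closest to Plbd1 (0.891), C3ar1 to Adgre1 (0.948) and C5ar1 to Cd14 (0.931).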

How the data were processed

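Single-cell RNA was counted in 4 libraries, 2 per day. The authors deposited raw UMI counts per gene and barcode, not normalized; Cell Ranger 3.0.1, Seurat 2.3.4 and GRCm38 (mm10) are named in the submitters' processing notes, and per the file headers only the day 5 matrices name a software version (3.0.1). Barcodes with under 200 genes (3) or over 10% mitochondrial UMIs (81) were left out. Cells were gated per cell into 11 classes from 93 class markers, of which 1 was not found; 664 cells passing gates of 2 lineages were set apart as mixed, which stands in for a doublet caller, and 1153 passed no gate. Counts were summed per library and class, and classes with 20 or more cells in every library were tested with edgeR 4.0.16 (R 4.3.3; quasi-likelihood, TMM, filterByExpr, two-sided, Benjamini-Hochberg over all genes, threshold 0.05). Contrasts between classes and the class by day interaction had the library as a block. All 9 members passed the count filter in microglia and in monocytes or macrophages, 8 in disease-associated phagocytes, 7 in neutrophils, 6 in dendritic cells, 5 in T cells, 4 in plasmacytoid dendritic cells and 3 each in NK and B cells; the others have values only. In data simulated on the real means, 83.5%, 89.5% and 84.0% of 200 genes changed 4-fold were recovered in microglia (8151 genes), monocytes or macrophages (9054) and neutrophils (3049). False calls numbered 7, 4 and 8. All genes of a class were given a common dispersion, and smaller changes were not simulated.

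Intervals are exact 95% Poisson intervals and cover counting error only. Named genes are the members, genes of the 44-gene pathway list that passed in a printed comparison (at most 10 per comparison by size), and the 3 genes most like a member. The values of 1 gene of that list are not reported here. Members and lists were chosen with earlier results of these data known. Alternatives were DESeq2 1.42.0, no TMM, no filter, a replicate block, each library left out, Leiden clusters (scanpy 1.11.5) in place of gates, mixed cells kept, a floor of 1317 UMIs per cell and stricter gates. In the cluster alternative 5 of 21 clusters stayed unnamed, since their leading genes went against a name or too few of their cells passed its gate, and disease-associated phagocytes had no cluster. Replicate numbers were not used as pairs, since correlations of same-numbered libraries ranged from -0.166 to 0.119. By median level per cell, border-associated macrophages carried nearly as much of the microglial list (40.2 per 10000 UMIs) as of their own (46.3), and dendritic cells more of the monocyte list (16.6) than of their own (15.4). Over all cells used, marker sums per library were 8.09 to 25.1 CPM for astrocytes, 103 to 158 for oligodendrocytes, 20.5 to 59.9 for endothelial cells, at most 0.651 for fibroblasts, at most 2.65 for erythroid cells and 0 to 33.5 for mast cells or basophils.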

Additional observations from a re-analysis of the deposited data

Results flagged for a closer look

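The change from day 5 to day 14 differed between microglia and monocytes or macrophages for 5 members, by the class by day interaction in edgeR. For the C1q chains the difference, microglia minus monocytes or macrophages, was 1.39 for C1qa, 1.16 for C1qb and 1.29 for C1qc on the log2 scale, the monocyte class falling while microglia did not pass. The 10 microglial markers fell together with C1q in the monocyte class, and a cluster rich in C1q (led by Ms4a7, Apoe and Gpnmb) held 29.7% and 30.1% of it on day 5 and 2.5% and 1.4% on day 14; their part in the difference was not tested. For C4b the difference was 2.09, from 40, 31, 5 and 27 UMIs in the monocyte class. For Cfp it was -2.51, and in the 2 main microglial clusters Cfp stood at 7.8 to 16.9 CPM on both days.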

How the results depend on the processing

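Over all classes 21 member tests passed between days. The count was 17 with DESeq2, 22 without TMM factors, 32 without the count filter, 25 with the replicate block, 30 with the numbers crossed, 29 with clusters in place of gates, 36 with mixed cells kept, 20 above the UMI floor and 22 with stricter gates. Between classes 24 passed, and 17 to 23 in the alternatives other than leaving out a library. Leaving out each library gave 20 to 25 between days, 19 to 22 between classes and 4 to 5 for the interaction, of which 5 passed in the full data. Of 50 member results that passed, 27 passed in every alternative, 22 missed the threshold in 1 or more and 3 changed sign in 1 or more. The changes of sign were Cfp in microglia between days (0.89, edgeR adjusted p 0.405) and its interaction (0.18, adjusted p 0.909), both with clusters in place of gates, and C1qa in monocytes or macrophages against neutrophils with mixed cells kept (-0.069, adjusted p 0.919); the cause was not tested. C1q in T, NK and B cells was 6.47% ± 2.25 (SD, n = 4 libraries) of the microglial level, 13.2% ± 8.01 with mixed cells kept and 6.74% with clusters. The share of lymphocytes with a C1qa UMI was 27.0% ± 8.66 at 1000 UMIs and 39.4% at 2000. The block, the pairing of same-numbered libraries, ended the call of C3 in monocytes or macrophages (adjusted p 0.0598). Same-numbered libraries did not deviate together. With 9 and 11 border-associated cells on day 14, and 7 to 58 UMIs of C3 or Cfb per day 14 library in microglia and disease-associated phagocytes, counting error is wide there. The crossing of numbers, the monocyte gate alone and the day 5 libraries alone were chosen after seeing the data.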

Other observations

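C1q was also set against Apoe, a lipid carrier that phagocytes make in large amounts. C1q UMIs (3 chains) per Apoe UMI were 0.779, 0.866, 0.50 and 0.486 in microglia, 0.655, 0.588, 0.366 and 0.376 in lymphocytes and 0.197, 0.203, 0.158 and 0.177 in monocytes or macrophages, in the order day 5 libraries 1 and 2, then day 14 libraries 1 and 2. The lymphocyte ratio lay between those of the other classes in every library and all 3 ratios were lower in both day 14 libraries than in both day 5 libraries.

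C1q chains in lymphocytes differed by kind. B cells held 1001, 1026, 617 and 811 CPM of C1qa, T cells 963, 1058, 626 and 468 CPM and NK cells 504, 463, 342 and 154 CPM. NK cells lay below T and B cells in all 4 libraries, so the background was not the same in each lymphocyte class.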
